A study of Mus musculus with 7 samples.

Results

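10 of the 27998 genes measured in stromal vascular cells of mouse fat are described here, all known as imprinted genes of growth: H19, Mest, Zim1, Peg3, Meg3, Mirg, Cdkn1c, Grb10, Ndn and Peg10. They were taken by gene symbol, and each symbol matched 1 gene of the deposited matrices. They were chosen by the lower levels of most of them in old than in young adipose progenitors of these libraries, so their age difference in progenitors is given as a description, without a test. The series compares inguinal subcutaneous fat from C57BL/6N females at 11 to 12 weeks (young, 4 libraries) and at 18 months (old, 3 libraries), with no other treatment named. The tissue was digested with collagenase, red cells were lysed, the suspension passed a 40 µm filter, and single cells were profiled with the 10x Genomics 3' v3 chemistry, which counts unique molecular identifiers (UMIs) at the 3' ends of polyadenylated RNA. The stromal vascular fraction holds the cells of fat other than mature adipocytes. The series gives 4 and 3 mice, so each library was read as 1 mouse, although pooling of animals within a library is not addressed in the labels. All mice are of 1 inbred strain, so the counts do not show which parental allele was transcribed.

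An imprinted gene is transcribed mainly from the copy inherited from 1 parent, under the control of DNA methylation that was laid down in the egg or the sperm. Many such genes act on growth before and shortly after birth and are then turned down in most organs, and in fat several of them act in the fibroblast-like progenitors that give rise to adipocytes. H19, Meg3, Mirg, Zim1 and Cdkn1c are known as maternally expressed genes in the mouse, Mest, Peg3, Ndn and Peg10 as paternally expressed ones, and Grb10 is maternal in most tissues and paternal in neurons.

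The 10 genes lie on 4 chromosomes (GRCm38, GENCODE release M21). H19 is a long non-coding RNA gene at chr7:142575529-142578143 on the minus strand, and Cdkn1c, protein-coding, lies at chr7:143458339-143461050 on the minus strand, 880.2 kb away. Zim1 (chr7:6671269-6696450) and Peg3 (chr7:6703892-6730431) are neighbouring zinc-finger genes on the minus strand, 7441 bp apart. Ndn lies at chr7:62346569-62350262 on the plus strand. Meg3 (chr12:109541001-109571726) and Mirg (chr12:109729764-109749460) are non-coding RNA genes of 1 cluster on the plus strand, 158.0 kb apart. Mest lies at chr6:30723547-30748465 and Peg10 at chr6:4747306-4760517, both on the plus strand, and Grb10 at chr11:11930508-12038683 on the minus strand. H19, Meg3, Mirg, Cdkn1c, Mest and Ndn each overlap a gene annotated on the other strand, and Peg3 adjoins another annotated gene. Whether the counting used strand is not given in the sources used here.

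4 of the genes also hold annotated microRNA genes on the same strand, and the UMI counts below are those of the host transcripts, not of the mature microRNAs, which a poly(A)-primed library does not measure. H19 holds the hairpin of miR-675, Mest that of miR-335, Meg3 the genes of miR-770 and miR-1906, and Mirg 14 hairpins with 26 mature microRNAs in the RefSeq table (GRCm38.p6). The mature sequences of the H19 and Mest hairpins are shown because their hosts are the members with the largest fitted decreases in progenitors, and those of Mirg because they are its only shared seed: its 26 mature microRNAs have 25 different seeds, and miR-453 and miR-496a-5p have the same. Sequences read 5′ to 3′, with the seed (bases 2 to 8) in capitals. The 5p and 3p arms of miR-675 lie at chr7:142577112-142577133 and chr7:142577078-142577099 on the minus strand, those of miR-335 at chr6:30741314-30741336 and chr6:30741354-30741375 on the plus strand, and the Mirg pair at chr12:109735669-109735692 and chr12:109739132-109739152 on the plus strand.
mmu-miR-675-5p: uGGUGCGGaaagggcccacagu
mmu-miR-675-3p: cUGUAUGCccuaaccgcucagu
mmu-miR-335-5p: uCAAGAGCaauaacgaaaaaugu
mmu-miR-335-3p: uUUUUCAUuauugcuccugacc
mmu-miR-453: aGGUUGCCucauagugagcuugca
mmu-miR-496a-5p: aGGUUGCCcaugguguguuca

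Promoter windows of RefSeq (GRCm38.p6; 250 bases before a start site) were matched for 7 of the 10 members, with 11 windows among them; H19, Cdkn1c and Peg10 were not matched. The stretches free of annotated exons are shown for Meg3, Mest, Zim1 and Peg3, 4 genes that were lower in every old progenitor library, 2 of them neighbours. 3 motifs were searched on both strands: GGGGCCCC, known as the core bound by PLAGL1, the cyclic AMP response element TGACGTCA, and AAGATGGC, the core bound by YY1. TGACGTCA stood in the Meg3 window 57 to 50 bases before the start and is in capitals, and it is in 1.546% (508) of all 32851 windows. The Peg3 window held TGACGTCA 178 to 171 bases and GGGGCCCC 201 to 194 bases before the start, in bases that are exonic in the opposite gene Usp29 and therefore not shown; GGGGCCCC is in 0.889% (292) of all windows. AAGATGGC (1.565% of all windows, 514) was in no member's window. The windows held 10 CpG dinucleotides for Meg3, 14 for Mest, 14 for Zim1 and 8 for Peg3, against a median of 6.0 over all windows. A second window of Meg3 held 0 CpG and a further one of Mest held 7. A match says only that these letters are present.
Meg3 chr12:109540746-109540995 plus strand: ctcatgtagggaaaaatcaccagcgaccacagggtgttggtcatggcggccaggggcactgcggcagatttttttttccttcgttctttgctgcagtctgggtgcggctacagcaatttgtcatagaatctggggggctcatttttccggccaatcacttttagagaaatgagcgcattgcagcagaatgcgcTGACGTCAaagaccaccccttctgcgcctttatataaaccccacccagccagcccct
Mest chr6:30737800-30738049 plus strand: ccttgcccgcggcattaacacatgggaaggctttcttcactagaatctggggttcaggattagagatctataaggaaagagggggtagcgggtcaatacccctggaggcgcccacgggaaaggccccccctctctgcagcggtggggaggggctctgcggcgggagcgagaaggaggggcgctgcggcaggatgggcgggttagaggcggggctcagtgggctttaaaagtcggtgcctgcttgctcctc
Zim1 chr7:6696451-6696682 minus strand: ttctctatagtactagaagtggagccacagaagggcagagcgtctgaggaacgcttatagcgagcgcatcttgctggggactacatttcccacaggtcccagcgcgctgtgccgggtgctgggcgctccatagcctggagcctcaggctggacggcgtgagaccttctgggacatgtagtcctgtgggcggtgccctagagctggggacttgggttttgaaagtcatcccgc
Peg3 chr7:6730432-6730577 minus strand: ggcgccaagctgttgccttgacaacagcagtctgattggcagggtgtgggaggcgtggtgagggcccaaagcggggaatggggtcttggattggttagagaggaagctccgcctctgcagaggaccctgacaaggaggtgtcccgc

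The matrices held 45514 barcodes, of which 37372 were kept as cells, and the libraries held 52336665 to 99516882 UMIs. Pairs of libraries shared 2 to 19 barcodes. Cells were clustered without the 10 members and without 56 other imprinted genes, so that these genes could not shape the groups they are described in, and 30 of 42 clusters were named from marker genes; the names stand for X-like cells rebuilt here. Adipose progenitors were the largest lineage (11928 cells; 1008 to 2719 per young and 1161 to 1930 per old library), and all 8 of their markers were detected, with a summed level of 23914 to 36806 CPM, which scales the summed counts of each library to a common total, in the young and 35982 to 52330 in the old libraries. The old progenitors were shallower, with median counts of 8991 to 13122 UMIs per cell against 13664 to 25740 in the young. Of 25 marker lists summed in progenitors, 3 were lower in every old than in every young library and 5 were higher. Markers of the matrix-producing subtype summed to 7677 to 12694 CPM in young and 1716 to 3629 in old progenitors, and so moved with the members that were lower. Pericyte markers (57.4 to 113 against 41.3 to 50.7 CPM) and plasma cell markers (86.3 to 177 against 59.3 to 70.9 CPM) were lower too in sum. The mean of log2(CPM + 1) over the plasma cell markers went the other way. It was higher in every old library (1.53 to 1.69 in the young against 2.03 to 2.34). Higher in the old were committed preadipocyte markers (1951 to 2841 against 4071 to 4286 CPM) and 11 genes of the stress response to tissue dissociation (6029 to 20082 against 20231 to 32758 CPM). So were proliferation genes (46.4 to 66.8 against 86.4 to 109 CPM), neutrophil markers (0.347 to 2.70 against 4.25 to 38.2 CPM) and myogenic markers (1.35 to 2.77 against 7.89 to 17.3 CPM). By the mean of log2(CPM + 1), the ages overlapped for the proliferation genes (1.49 to 1.99 against 1.57 to 2.10). They also overlapped so for the dissociation genes (8.02 to 9.91 against 9.81 to 10.7). Macrophage markers overlapped, at 23.5 to 43.9 and 28.9 to 143 CPM, and the 5 red cell genes reached 242 CPM in old replicate 1 against 3.55 to 27.2 in the other libraries. The part of these differences in the results below was not tested.

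H19, the non-coding RNA that gives rise to miR-675 and is known as a restraint on growth, showed the largest age difference of the 10 genes in progenitors. Its level in the summed progenitor counts was 25.0, 151, 342 and 151 CPM in young replicates 1 to 4 and 2.31, 7.33 and 4.75 CPM in old replicates 1 to 3. Every old library was below every young one. Relative to their mean, the young libraries differed among themselves more than for any other member. The means were 167 ± 131 (SD, n = 4) and 4.80 ± 2.51 (SD, n = 3) CPM, a 34.9-fold difference, and the fitted log2 fold change of old against young was -5.18 (SE 0.89; edgeR quasi-likelihood fit), or -4.57 without young replicate 3. Here and below, a sum over progenitors cannot tell less RNA in each cell from fewer cells of a subtype that makes more of it.

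Meg3, a long non-coding RNA of the Dlk1 and Dio3 cluster known to restrain cell proliferation, was at 859, 1716, 1950 and 1005 CPM in the young and 517, 359 and 308 CPM in the old libraries. Mirg, the microRNA host at the far end of the same cluster, was at 7.63, 32.9, 19.4 and 8.07 CPM in the young and 4.99, 3.29 and 5.82 CPM in the old libraries. For both, all old libraries were below all young ones, and young replicates 2 and 3 were the highest for both. The fitted log2 fold changes were -1.82 (SE 0.35) for Meg3 and -1.88 (SE 0.57) for Mirg.

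The neighbours Zim1 and Peg3, both zinc-finger genes, were lower in all old libraries. Zim1 was at 54.9, 57.6, 64.8 and 29.7 CPM in the young and 8.76, 8.76 and 9.05 CPM in the old libraries, and the old libraries were nearly equal. Peg3, a regulator of growth and maternal behaviour in mice, was at 313, 321, 296 and 183 CPM in the young and 102, 103 and 76.8 CPM in the old. Young replicate 4 was the lowest young library for both genes. The log2 fold changes were -2.53 (SE 0.27) for Zim1 and -1.56 (SE 0.21) for Peg3.

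Mest, a hydrolase-like protein known to rise when fat expands, was at 18.0, 27.1, 66.6 and 28.4 CPM in the young and 4.99, 4.99 and 3.85 CPM in the old libraries, a 7.59-fold difference of the means with no overlap. Its log2 fold change was -2.94 (SE 0.46). Cdkn1c, the cyclin-dependent kinase inhibitor p57, was at 300.1, 309.8, 520 and 438 CPM in the young and 102, 123 and 166 CPM in the old libraries, again with no overlap (log2 fold change -1.57, SE 0.31). H19 and Mest were both highest in young replicate 3, and so was Cdkn1c.

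Grb10, an adaptor that dampens insulin receptor signalling, differed less. It was at 156, 127, 115 and 108 CPM in the young and 90.2, 115 and 75.1 CPM in the old libraries, and old replicate 2 lay above young replicate 4 (log2 fold change -0.43, SE 0.16). Ndn, encoding necdin, which is known to hold back adipocyte differentiation, was at 211, 138, 143 and 133 CPM in the young and 150, 160 and 216 CPM in the old libraries, with a log2 fold change of 0.21 (SE 0.22). Peg10, derived from a retrotransposon and known from placenta, was at 6.61, 13.9, 19.3 and 7.44 CPM in the young and 8.80, 8.76 and 7.62 CPM in the old (log2 fold change -0.51, SE 0.38). The ages overlapped for these 3 genes, and Ndn had the higher mean in the old libraries.

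As a description, 6 of the 10 members had an adjusted p under 0.05 in edgeR in this contrast, beside 1.84% of the 13970 genes tested, and 8 of 10 had all old libraries below all young ones on the TMM scale, beside 9.07% of all genes. Without that scaling the second count was 7, since Grb10 then overlapped. The 6 were H19, Mest, Zim1, Peg3, Meg3 and Cdkn1c. The first count was 1 (Zim1) without old replicate 1 and also without old replicate 2, 3 without old replicate 3 and 3 without young replicate 4. The contrast chose the members, so nothing is read from these counts.

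**Figure D1:**
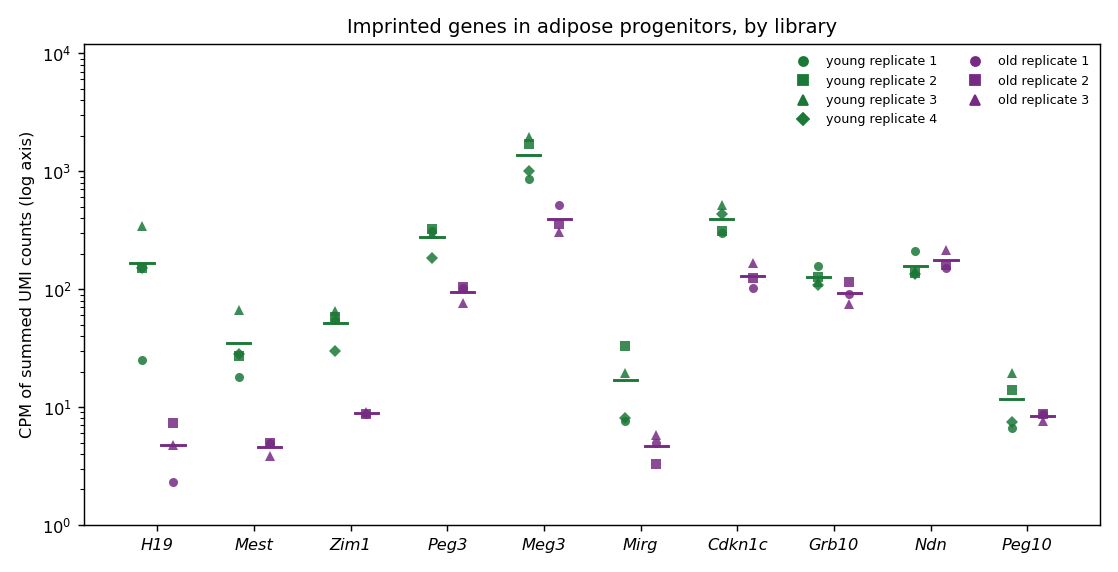
The vertical log axis gives CPM of the summed UMI counts of progenitors for each of the 10 genes, with a point for each of the 4 young and 3 old libraries. The old points lie below all young points for H19, Mest, Zim1, Peg3, Meg3, Mirg and Cdkn1c, and the ages overlap for Grb10, Ndn and Peg10.

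The 10 genes were next followed across the cell lineages of the tissue. Among lineages with at least 20 cells in all 7 libraries, progenitors had the highest young mean for all 10. H19, Zim1 and Grb10 were highest in progenitors in 7 of 7 libraries, Peg3 and Ndn in 6 of 7 (with mural cells, the pericytes and smooth muscle of vessel walls, above them in the other), Cdkn1c in 5 and Meg3 and Mirg in 4. These orders are descriptions with no test.

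Cdkn1c, Mest and Grb10 were shared with the endothelium. Cdkn1c was at 164, 179, 177 and 141 CPM in young and 113, 167 and 129 CPM in old endothelial cells, and the ages overlapped. Mest was at 16.4, 31.5, 61.1 and 8.64 CPM in young and 16.9, 18.95 and 24.9 CPM in old endothelial cells, with the young libraries on both sides of the old. Grb10 was at 80.5, 72.5, 69.5 and 61.7 CPM in young and 46.4, 56.5 and 53.1 CPM in old endothelial cells, with no overlap. The mean endothelial level of Mest was 82.5% of the progenitor level in the young and 455% of it in the old libraries, so endothelial cells were its highest lineage in 4 of 7 libraries.

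Meg3, Ndn and Peg3 were shared with mural cells, which number 44 to 414 per young and 50 to 110 per old library. Meg3 was at 899.5, 999.9, 850 and 739 CPM in young and 228, 411 and 477 CPM in old mural cells, with no overlap. Ndn was at 137, 61.4, 159 and 91.0 CPM in the young and 35.9, 45.4 and 93.4 CPM in the old, and the ages overlapped. Peg3 was at 32.0, 106, 70.8 and 28.9 CPM in young and 177, 90.9 and 35.4 CPM in old mural cells, again overlapping, with old replicate 1 the highest. The mural level of Meg3 was 70.0% of the progenitor level in young and 104% in old libraries, and that of Peg3 20.7% and 102%. Mirg and Peg10, both at low counts, were also found in mural cells. Their mural levels were 121% and 81.2% of the progenitor level for Mirg and 70.1% and 150% for Peg10. Mural cells were the highest lineage in 3 of 7 libraries for each of these 2 genes. Among the immune lineages, B cells held 30.0 CPM of Meg3 in the young and 3.51 CPM in the old libraries, 2.16% and 0.859% of the progenitor levels.

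**Figure D2:**
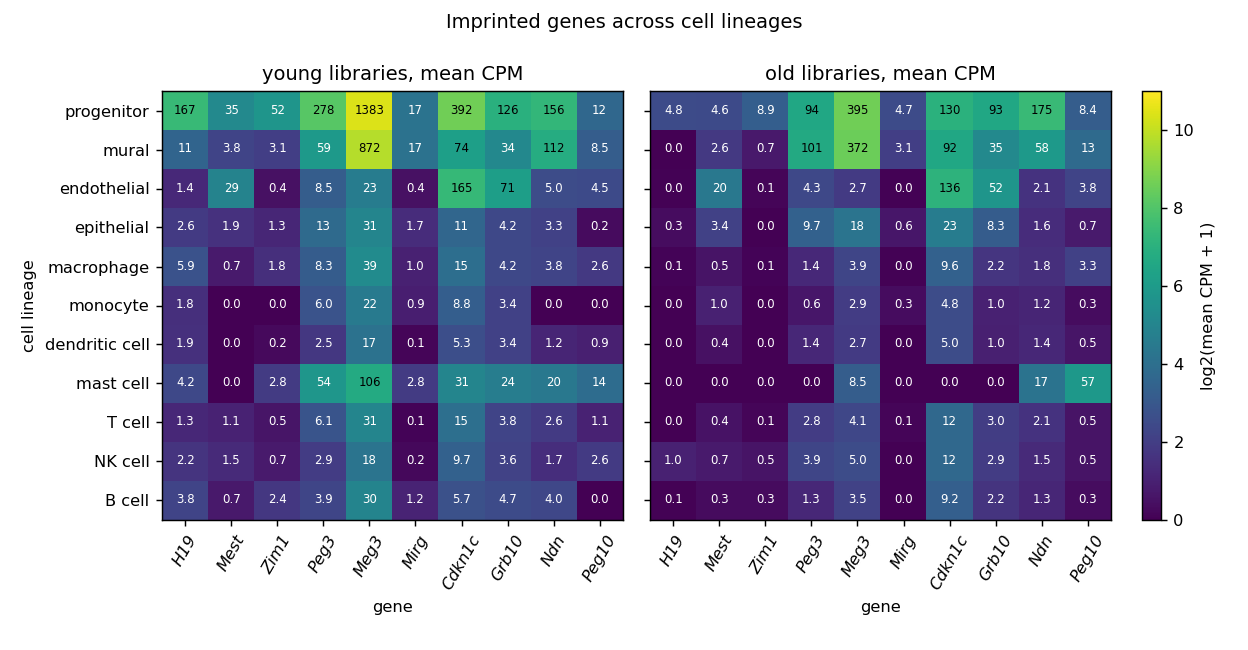
Rows are cell lineages, columns the 10 genes, and the colour gives the mean CPM over the young libraries (left) and the old libraries (right). On the left the progenitor row is the strongest for 9 genes, and Peg10 is higher in mast cells (14.0 CPM over 3 libraries, against 11.8). Cdkn1c, Grb10 and Mest also show in the endothelium, and Meg3, Ndn and Peg3 in mural cells.

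The age difference outside progenitors did not enter the choice of the members. It was tested with edgeR's quasi-likelihood test, adjusted by Benjamini-Hochberg over all genes of each lineage. These cells share their libraries with the progenitors, so the tests are not independent of the contrast that chose the members. Of 33 pairs of a member and a lineage with enough counts, 1 passed: Meg3 fell in B cells, from 18.4, 35.0, 44.9 and 21.7 CPM in the young to 4.58, 5.23 and 0.725 CPM in the old libraries, with no overlap. The fitted log2 difference was -3.60 (SE 0.56, edgeR adjusted p = 0.00469), in a lineage where 0.902% of 7649 genes passed and 3.32% had all old libraries below all young ones. The young B cells held 77 Meg3 UMIs in all and the old ones 16, and the call was lost without young replicate 3 (edgeR adjusted p = 0.0583), while the difference was -2.83 without old replicate 3. Beside it, Meg3 in progenitors of the same libraries was 3.50-fold lower in the old. In T cells, B cells, macrophages and endothelium alike, mean Meg3 was 1.62 to 2.85% of the progenitor level in the young libraries. In the old libraries it was 0.633 to 0.957%. The part of free RNA in the B cell value was not tested.

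Of the 33 pairs, 17 had an unadjusted p under 0.05 in edgeR, beside 8.9% of all genes in the same 8 lineages, and DESeq2 called 9, of which 6 were Meg3, beside 2.05% of all genes. Meg3 did not pass in macrophages (38.9 to 3.85 CPM, log2 fold change -3.34, edgeR adjusted p = 0.0817), in the endothelium (23.3 to 2.66 CPM, -2.93, edgeR adjusted p = 0.0946) or in mural cells (872 to 372 CPM, -1.21, edgeR adjusted p = 0.216). Meg3 had all old libraries below all young ones in these 3 lineages, as had 2.97%, 4.83% and 4.05% of all genes there. The share of genes that passed was 0.118% in macrophages, 0.192% in T cells, 0.0215% in dendritic cells and 0% in NK cells. In mural cells edgeR called 0 of 7059 genes (0%), with 625 at an unadjusted p under 0.05, and DESeq2 called 46.

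In the endothelium, 0 of 7 members passed, beside 0.163% of 11645 genes, with 4 at an unadjusted p under 0.05 in edgeR (9.78% of all genes) and 1, Meg3, called by DESeq2 (1.79% of all genes). On the log2 scale Grb10 differed by -0.43 (SE 0.15, edgeR adjusted p = 0.343), Cdkn1c by -0.26 (SE 0.18, edgeR adjusted p = 0.783) and Mest by -0.42 (SE 0.51, edgeR adjusted p = 0.923). The corresponding values in progenitors were -0.43, -1.57 and -2.94. Whether the age difference of Cdkn1c or Mest differs between the endothelium and progenitors was not tested.

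In mural cells the log2 differences were 1.01 for Peg3 (SE 0.53, edgeR adjusted p = 0.659), -1.04 for Ndn (SE 0.40, edgeR adjusted p = 0.464), 0.29 for Cdkn1c (SE 0.34, edgeR adjusted p = 0.880) and 0.08 for Grb10 (SE 0.29, edgeR adjusted p = 0.992). In epithelial cells, where 1.55% of 12040 genes passed, 0 of 6 members passed. At an unadjusted p under 0.05 were 2 of the 6 in edgeR, beside 19.3% of all genes, and DESeq2 called 0, beside 8.36%. Grb10 was at 4.24 CPM in the young and 8.33 in the old epithelium with every old library higher, as in 9.01% of genes there (log2 fold change 1.04, edgeR adjusted p = 0.109), and Cdkn1c at 11.4 and 23.4 CPM (1.16, edgeR adjusted p = 0.180). In these lineages the members' values thus lay on both sides of 0.

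The list of other imprinted genes held 61 symbols, of which 56 were in the matrices and 46 had enough counts in progenitors. 3 of the 46 passed, all lower in old progenitors, and 0 rose, beside 1.84% of all genes; the median log2 fold change of the 46 was -0.07. Slc38a4, an amino acid transporter, fell: its level was 29.5 ± 6.98 CPM (SD, n = 4) in the young and 7.45 ± 1.80 CPM (SD, n = 3) in the old libraries (edgeR adjusted p = 0.00953; log2 fold change -1.99 with SE 0.24). Ppp1r9a, the actin-binding protein neurabin, fell from 29.4 ± 3.13 to 9.96 ± 4.53 CPM (edgeR adjusted p = 0.0263; -1.58, SE 0.27), and Usp29, the neighbour transcribed away from Peg3, from 1.14 ± 0.0995 to 0.0759 ± 0.0662 CPM, which rests on 157 and 5 UMIs (-3.64, SE 0.55, edgeR adjusted p = 0.0163). None of the 3 was called without old replicate 1, and without young replicate 4 only Slc38a4 was.

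Igf2, the growth factor gene that shares its enhancers with H19, was at 1.62 CPM in young and 1.44 in old progenitors (edgeR adjusted p = 0.9004; log2 fold change -0.16, SE 0.44). Dlk1, the paternally expressed preadipocyte factor of the Meg3 cluster, was at 2.65 and 0.604 CPM (-1.95, SE 0.77, edgeR adjusted p = 0.234), and the difference was -3.66 without old replicate 1. Plagl1, a zinc-finger regulator of imprinted genes, was at 54.7 and 22.3 CPM (-1.31, SE 0.43, edgeR adjusted p = 0.164). Gnas, encoding the stimulatory G protein subunit, was at 1378 and 1310 CPM (-0.05, SE 0.20, edgeR adjusted p = 0.929). None of these 4 passed. Outside progenitors, 1 of 220 pairs of such a gene and a lineage passed (monocytes, with 0.0175% of genes called, and mast cells, with 0%, were fitted too): Gpr1, a chemerin receptor gene, rose in the endothelium, where it was at 5.76 ± 2.85 CPM (SD, n = 4) in the young and 30.7 ± 9.59 CPM (SD, n = 3) in the old libraries (edgeR adjusted p = 0.0354; log2 fold change 2.31 with SE 0.34). That call was lost when young replicate 2, 3 or 4 or old replicate 1 or 3 was left out.

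Progenitors were divided into 12 sub-clusters, again without imprinted genes, and 8 of them were named from markers. Interstitial progenitors (Pi16, Dpp4) are the stem-like cells of the fibrous layer, committed preadipocytes (Icam1, Pparg, Fabp4) are closer to adipocytes, regulatory progenitors carry F3 and Gdf10, and matrix-producing progenitors carry Postn, Tnc and Lrrc15. The named subtypes were unevenly filled: committed preadipocytes were 39 to 156 cells in the young and 428 to 657 in the old libraries, and matrix-producing cells 330 to 1117 and 194 to 247. The interstitial class joined 3 sub-clusters, 1 with 1683 young and 70 old cells and 1 with 32 young and 716 old cells, so its young and old cells differ beyond the members. The matrix-producing class also joined 3 sub-clusters and is a mixture. Its largest (1685 cells) was led by Igfbp2 and Crabp1, with Tnc among its top 10 genes. The next (1544 cells) was led by Lrrc15, with Postn among its top 10. Subtype shares depend on the clustering and were not compared. The classes rest on centring each gene within its library: without it, committed preadipocytes were 36 young and 2522 old cells and matrix-producing cells 4061 young and 36 old, so the ages could not be compared within these classes. The 4 unnamed sub-clusters held 23.6% of progenitors.

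Among the 4 named subtypes, the members were highest in different ones. H19 and Cdkn1c were highest in matrix-producing progenitors in 7 of 7 libraries, Peg3 and Zim1 in 6 of 7, and Mest and Meg3 in 5 of 7. For Meg3, interstitial cells were higher in old replicate 1 (763 against 563 CPM) and old replicate 3 (754 against 372 CPM). Grb10 was highest in interstitial progenitors in 7 of 7 libraries and lowest in matrix-producing ones in 7 of 7. Ndn was highest in regulatory progenitors in 7 of 7, where Meg3 was lowest in 7 of 7. Peg3 and Zim1, which were lowest in interstitial cells in 7 of 7 libraries, did the reverse of Grb10 there. The unnamed cells pooled had a higher young mean than any named subtype for Peg3 (403 against 376 CPM in matrix-producing cells), Zim1 (83.1 against 68.3) and Peg10 (17.5 against 11.3). They lay above the matrix-producing cells in 4 of 7 libraries for Peg3 and in 6 of 7 for Zim1.

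Within matrix-producing progenitors, H19 was at 61.2, 216, 493 and 230 CPM in the young and 9.39, 9.69 and 18.5 CPM in the old libraries, with no overlap. In committed preadipocytes it was at 0, 166, 289.6 and 110 CPM in the young and 0.894, 2.87 and 0.220 CPM in the old, and young replicate 1, with 39 such cells and no H19 UMI, lay below the old. Meg3 in matrix-producing cells was at 1077, 2308, 2408 and 1225 CPM in the young and 563, 564 and 372 CPM in the old. All old libraries were below all young ones for Meg3 in each of the 4 named subtypes, and in committed preadipocytes the means were 1013 and 188 CPM.

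The level of Cdkn1c also depended on the subtype. In matrix-producing cells it was at 716, 517.5, 869.5 and 648 CPM in the young and 279, 350 and 332 CPM in the old libraries, with no overlap. In interstitial cells it was at 117, 153, 122 and 267 CPM in the young and 74.5, 108 and 143 CPM in the old, and in regulatory cells at 11.3, 27.3, 34.8 and 87.6 CPM and 34.4, 60.4 and 69.1 CPM, with overlap in both. When the counts of the 4 named subtypes were pooled, the log2 ratio of old to young was -1.83 for Cdkn1c, and when the 4 were weighted equally in each library it was -0.89. For the other members it moved less with the weights: from -5.41 to -4.73 for H19, -3.18 to -2.70 for Mest, -2.004 to -1.42 for Mirg, -1.93 to -1.60 for Meg3, -1.58 to -1.36 for Peg3 and -0.38 to -0.43 for Grb10, while Zim1 was at -2.56 both ways.

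Grb10 in interstitial progenitors was at 254, 210, 207 and 203 CPM in the young and 167, 192 and 155 CPM in the old libraries, with no overlap, and in matrix-producing cells at 91.7, 99.8, 91.0 and 80.0 CPM and 60.7, 75.8 and 52.7 CPM. The old libraries were all lower within each of the 4 named subtypes, although the pooled sums overlapped. Within the interstitial class, however, the sub-cluster that held most of its young cells had Grb10 at 222 CPM in the young and 234 in 2 old libraries with enough cells, and most of the old cells were in another sub-cluster. With finer sub-clusters the ages overlapped for Grb10 in committed preadipocytes. Peg3 in interstitial cells was at 93.0, 89.1, 33.8 and 30.8 CPM in the young and 10.3, 5.71 and 3.13 CPM in the old, a 9.65-fold difference, while in matrix-producing cells its means were 376 and 138 CPM. Zim1 in interstitial cells was at 7.68, 7.75, 6.72 and 1.88 CPM in the young and 0.516, 0.357 and 0 in the old. Ndn overlapped between the ages in all 4 subtypes, with means of 247 and 226 CPM in regulatory cells.

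Counted over the 4 named subtypes, all old libraries were below all young ones in 4 for Zim1, Meg3 and Grb10, in 3 for H19 and Mest, in 2 for Peg3 and Mirg, in 1 for Cdkn1c and in 0 for Ndn and Peg10. The share of all genes with a mean of at least 1 CPM that did so was 5.83% in interstitial, 7.03% in committed, 5.13% in regulatory and 8.01% in matrix-producing cells. With finer sub-clusters the counts were 4 for H19 and Meg3, 3 for Zim1, Grb10, Mest and Peg3, 2 for Mirg and Cdkn1c and 0 for Ndn and Peg10. These counts come from the contrast that chose the members and are descriptions. Among named subtypes, matrix-producing cells had the highest young mean for 8 members here and for 5 with finer sub-clusters; with the unnamed cells counted it was 5 here.

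**Figure D3:**
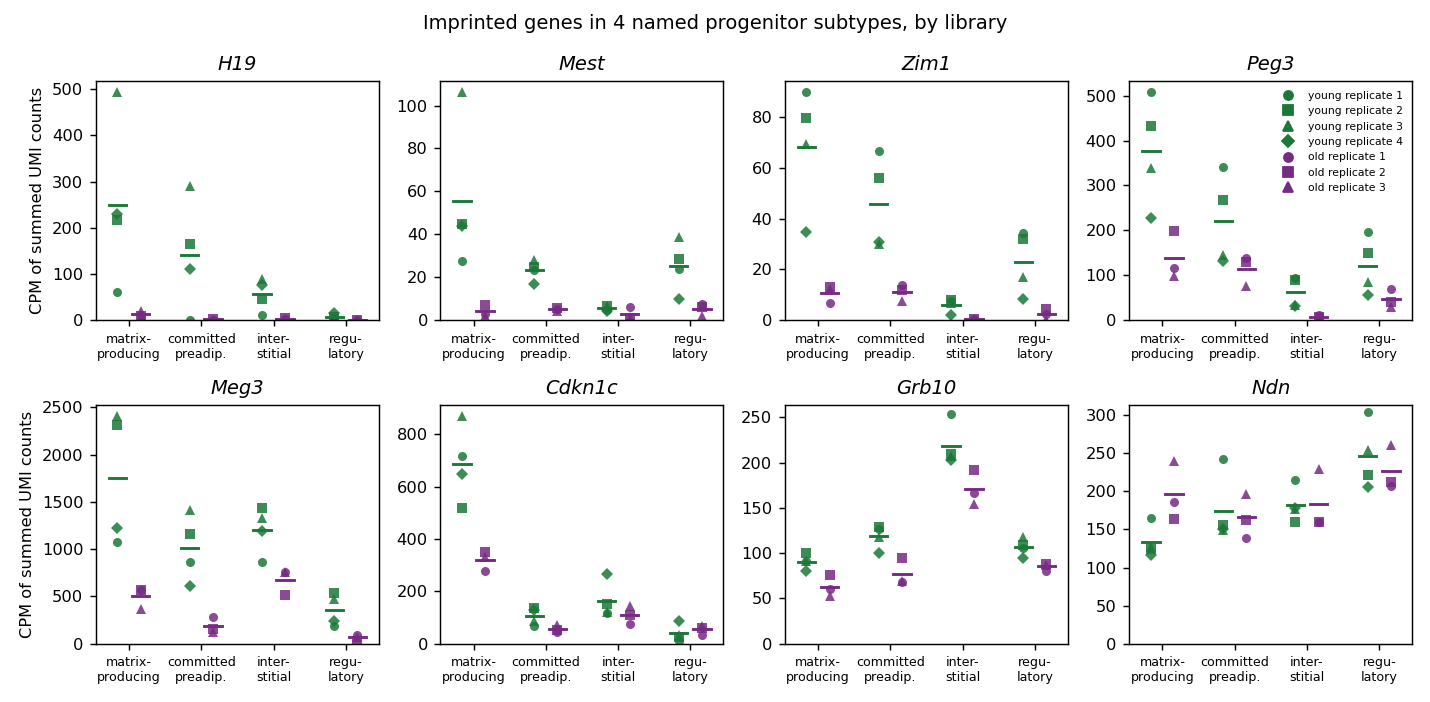
Each panel is a gene, with CPM of the summed UMI counts on the vertical axis and the 4 named progenitor subtypes on the horizontal axis, and a point for each young and old library. H19 and Cdkn1c stand highest in matrix-producing cells, Grb10 in interstitial cells and Ndn in regulatory cells. Meg3 stands highest in matrix-producing cells in the young libraries and in interstitial cells in old replicates 1 and 3.

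The members were also described by the share of cells with a UMI and by the UMIs per positive cell. These measures cannot tell fewer cells carrying a transcript from less of it in each cell. At a fixed depth, less RNA in every cell also lowers the share, and a positive cell holds at least 1 UMI. Cells were thinned at random to 3000 UMIs each, leaving out 60 to 176 shallower progenitors per young and 45 to 71 per old library. H19 was then found in 3.42, 14.5, 23.5 and 11.2% of the young and 0.323, 0.979 and 0.637% of the old progenitors, with no overlap. Its positive cells held 2.90 ± 0.917 (SD, n = 4) UMIs in the young and 1.66 ± 0.380 (SD, n = 3) in the old libraries, and these ranges overlapped. T and B cells, which stand here for the share that free RNA gives, had H19 in 0.581% of young and 0% of old cells (0 of 4408, which allows a share of up to 0.0681%, for counting error only), with median depths of 4800 to 7418 and 4432 to 5826 UMIs. The old progenitor shares lay above this limit. In the summed counts without thinning, H19 in the old libraries was on average at 1.27% of the progenitor level in B cells and 0% in T cells. The part of free RNA in the old progenitor shares was not tested.

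The share of progenitors with Meg3 was 61.3, 81.3, 77.6 and 63.9% in the young libraries, compared with 37.8, 29.0 and 27.8% in the old. Its positive cells also held fewer UMIs in every old library, at 5.45 ± 1.30 (SD, n = 4) in the young and 3.60 ± 0.311 (SD, n = 3) in the old. For Cdkn1c the share was 36.5, 41.6, 49.3 and 55.9% in the young libraries, compared with 19.5, 23.9 and 34.7% in the old, with 2.45 and 1.65 UMIs per positive cell, again with no overlap. Lymphocytes carried Meg3 in 8.07% of young and 1.29% of old cells and Cdkn1c in 3.06% and 3.13%.

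On average, young and old progenitors differed in their share of Zim1-positive cells (11.5% and 2.13%), and likewise for Mest (7.55% and 1.21%), Mirg (4.52% and 0.867%) and Peg3 (36.2% and 18.0%), each with all old libraries lower. Grb10 was found in 30.2% and 22.9%, Ndn in 36.2% and 37.9% and Peg10 in 3.13% and 2.28%, with overlap between the ages. The lymphocyte shares of these 7 genes were at most 1.62%. Without thinning the young means were higher, at 24.1% for H19 and 83.2% for Meg3.

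Per cell, the thinned young progenitors held 2.39, 2.77, 2.88 and 2.32 of the 10 transcripts on average and the old ones 1.40, 1.40 and 1.50. Cells with at least 5 of the 10 made up 6.12, 11.0, 16.0 and 4.60% of the young and 0.484, 0.377 and 0.455% of the old progenitors. Cells with none made up 6.74, 2.75, 3.48 and 5.74% of the young and 19.6, 20.3 and 18.7% of the old. The ages did not overlap in any of these 3 measures. The members were chosen by lower levels in old progenitors, so these measures and the shares of positive cells above are descriptions. The same measures were not taken over all genes.

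**Figure D4:**
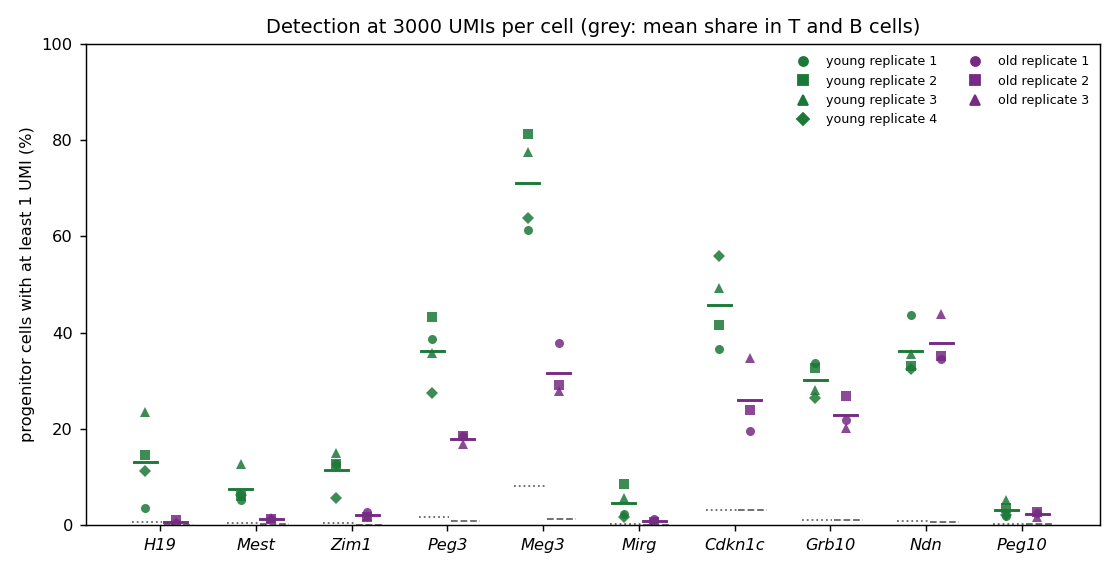
The vertical axis gives the percentage of progenitor cells with at least 1 UMI of each gene after thinning every cell to 3000 UMIs, with a point per library and the mean share in T and B cells in grey. Meg3 lies at 61.3 to 81.3% in the young and 27.8 to 37.8% in the old libraries, and Ndn overlaps between the ages.

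Whether the genes were found in the same cells was measured within each library as the number of thinned progenitors with both genes over the number expected from their separate shares. In the 36 of 45 pairs that could be measured in all 4 young libraries, this ratio had a median of 1.07 and ran from 0.778 to 1.93. All 4 young libraries were above 1 in 18 pairs and below 1 in 6. Of 17 pairs measured in all 7 libraries, 2 were above 1 in all 7 and 2 were below 1 in all 7. Ratios are descriptions over libraries and carry no test. Pairs of other genes were not measured, so no share over all pairs stands beside these counts.

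The neighbours Zim1 and Peg3 were found together more often than expected in all 4 young libraries, with ratios of 1.85, 1.82, 1.92 and 1.86. Mest was found with Zim1 at ratios of 2.35, 1.30, 1.32 and 2.74 and with Peg3 at 1.61, 1.41, 1.62 and 1.68. H19 was found with Cdkn1c at 2.07, 1.38, 1.46 and 1.20, and Meg3 with its cluster neighbour Mirg at 1.48, 1.21, 1.26 and 1.53. The 6 pairs below 1 all held Grb10 or Ndn: Zim1 with Grb10 was at 0.774, 0.771, 0.778 and 0.787, and Peg3 with Ndn at 0.893, 0.897, 0.924 and 0.920.

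Genes of a shared subtype meet in the same cells more often than over all progenitors, so the expected numbers were also taken within each sub-cluster. Then 13 of 37 pairs had all 4 young libraries above 1 and 1 pair, Cdkn1c with Grb10, had all below, with a median ratio of 1.06. Zim1 with Peg3 stayed above 1 in all 7 libraries, at 1.35 on average in the young and 2.02 in the old, Meg3 with Mirg was at 1.26 and H19 with Cdkn1c at 1.20 in the young. Peg3 with Grb10 moved from 0.870 to 1.01 and Zim1 with Grb10 from 0.778 to 0.945. All 13 pairs above 1 were among the 7 members other than Grb10, Ndn and Peg10. Of 18 pairs measured in all 7 libraries, 6 were above 1 in all 7 and 0 were below 1 in all 7. Pairs of other genes were not measured here either.

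**Figure D5:**
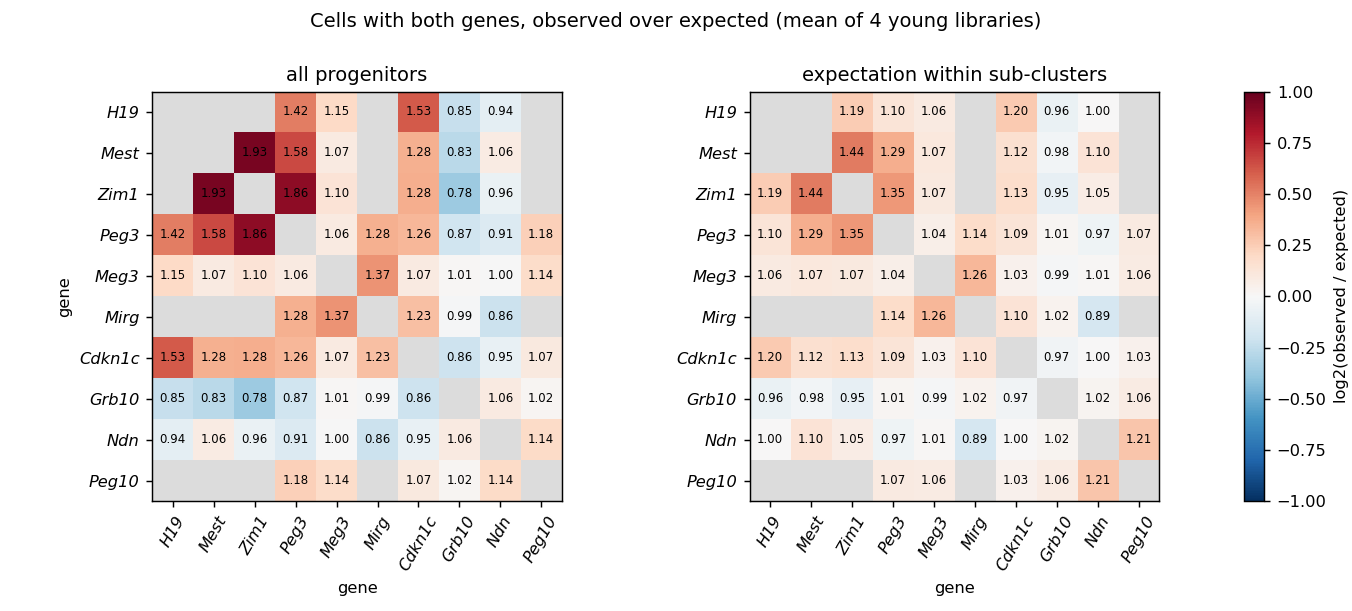
Both axes list the 10 genes, and the colour gives the number of cells with both genes over the expected number, as the mean of the 4 young libraries, over all progenitors and with the expectation taken within sub-clusters. Zim1 with Peg3 stands at 1.86 over all progenitors and 1.35 within sub-clusters.

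The genes whose levels most resembled those of H19, Mest and Meg3 over the 28 sums of a named subtype in a library were found by Pearson's correlation of log2(CPM + 1) among 5938 genes outside the members with a mean of at least 20 CPM. The 28 sums share their libraries, depth and age groups, so the coefficients are descriptions. For H19 they included Lrrc15 (r = 0.82), Dynll2, Sox4 and Sub1 (0.81 each), for Mest the collagen genes Col1a2 (0.87), Col1a1 (0.86) and Col3a1 (0.81) with Sparc (0.83) and Snhg18 (0.82), and for Meg3 Enah (0.89), Postn, Aldh7a1 (0.87 each), Farp1 (0.86) and Aspn (0.85). Lrrc15 and Postn were among the markers that named matrix-producing cells. Set in the same order, the positions of the members were widely spread. For Mest, Zim1 would stand at 3 (0.84), Peg3 at 26 (0.73), H19 at 213, Meg3 at 461, Cdkn1c at 1777 and Grb10 at 3546. For H19 they were Meg3 at 13 (0.77), Cdkn1c at 100, Mest at 288, Zim1 at 372, Peg3 at 828 and Grb10 at 2294. For Meg3 they were H19 at 32, Cdkn1c at 280, Mest at 826, Grb10 at 944, Zim1 at 957 and Peg3 at 1853. Ndn was negative with all 3 (-0.63 with H19, -0.32 with Mest and -0.54 with Meg3).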

How the data were processed

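The deposited files hold UMI counts of 27998 genes per barcode for 7 libraries. Per the submitters' processing notes, the authors obtained the counts from Cell Ranger 4.0.0 and mm10. Barcodes were kept from 500 UMIs and 300 genes upward where mitochondrial UMIs were no more than 15%. Doublets were scored with Scrublet in scanpy 1.11.5 and left out at 0.8% per 1000 barcodes (2.51% to 7.34% per library). Leiden clustering (leidenalg 0.10.2, 2000 variable genes, 30 components, 15 neighbours, resolution 1) left out all listed imprinted genes. Progenitors were sub-clustered likewise after centring each gene within its library. A cluster was named from its best-scoring markers (at least 3 detected), with score limits set after the clusters were seen; names stand for X-like cells. 12 clusters (3875 cells) and 4 sub-clusters stayed unnamed.

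Counts were summed per library and lineage over at least 20 cells. CPM values are these sums divided by their library total, without further scaling. The age contrast was fitted in edgeR 4.0.16 (R 4.3.3; filterByExpr, TMM, 2-sided quasi-likelihood test, Benjamini-Hochberg adjustment over all genes of a lineage, threshold 0.05). Counts of libraries that do not overlap use TMM-scaled CPM in these fits. P-values measure the spread between these libraries. The fit was tested on simulated data, in which all genes had the same set spread and only genes above 20 CPM were changed. At a simulated log2 change of 1 in size, it recovered 7% of the changed genes in progenitors, 9% in mural and 8% in endothelial cells. At a change of 2 in size it recovered 80%, 64% and 79%. The rates do not cover genes at lower counts or with a wider spread. A gene that did not pass can therefore still differ with age. Shares of cells and co-detection used cells thinned to 3000 UMIs, and a pair was measured where at least 5 cells were expected. No interval of counting error is given, since each value is shown per library.

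All members are described. Of the other imprinted genes, those that passed and Igf2, Dlk1, Plagl1 and Gnas are named. Of the 5 genes most like each of H19, Mest and Meg3, all are named but 1, which is not reported here. Members and lists were chosen with earlier results of these data known. DESeq2 1.42.0, leaving out each library, a replicate block, RLE size factors, dropping the expression filter, keeping doublets, at most 5% mitochondrial UMIs, clusters made with imprinted genes, resolution 2, thinning to 1500 UMIs and no thinning were tried. Sub-clustering without centring was added after seeing the data and split the subtypes by age.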

Additional observations from a re-analysis of the deposited data

Results flagged for a closer look

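In 47 groups of 4 young libraries, a library far from the other 3 by Dixon's test was found in 3, where chance gives about 1 in 20. All 3 were young replicate 1. Ndn in progenitors was at 211.109 CPM in young replicate 1, and the next library was at 143 CPM. Grb10 in interstitial progenitors was at 253.741 CPM there, with the next at 210.0 CPM, and Ndn in committed preadipocytes at 241.955 CPM, with the next at 156 CPM, on 39 such cells in that library. Without young replicate 1, the log2 fold change of Ndn in progenitors was 0.32.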

How the results depend on the processing

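The number of genes past the threshold in progenitors was 257, and 29 to 448 when 1 library was left out. The number of members among them, a description only, was 6, and 1 to 6. That of other imprinted genes was 3, and 0 to 4. Outside progenitors, 1 pair of a member and a lineage passed, and 0 to 4 when 1 library was left out. DESeq2 gave 968 genes in progenitors, 5 other imprinted genes there and 9 pairs in other lineages. The pairs were 11 without the expression filter, 3 with doublets kept, 2 in clusters made with imprinted genes and 2 at no more than 5% mitochondrial UMIs. The replicate numbers do not pair the libraries (correlations of same-numbered libraries -0.0055, 0.026 and 0.0053); with the replicate number as a block, 87 genes, 1 other imprinted gene and 2 pairs passed. Among named subtypes, matrix-producing cells had the highest young mean for 8 members, and for 5 at resolution 2. Without centring within libraries this could not be repeated, since committed preadipocytes then had 3 to 13 cells per young library. H19 was found in 13.2% of young progenitors at 3000 UMIs per cell and in 24.1% without thinning.

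The direction changed in 12 cases, none of them of a result that passed; the cause was not tested. With 1 library left out, the log2 fold change of Ndn in progenitors ran from -0.057 (without old replicate 3) to 0.33, that of Igf2 from -0.34 to 0.27 (0.029 without old replicate 3, 0.27 without young replicate 3) and that of Gnas from -0.24 to 0.072 (0.072 without old replicate 2, 0.0041 without young replicate 3). Mest in the endothelium ran from -0.72 to 0.12 (without young replicate 3). In mural cells, Cdkn1c ran from -0.028 (without old replicate 3) to 0.51 and was at -0.003 at no more than 5% mitochondrial UMIs, and Grb10 ran from -0.14 (without old replicate 1; -0.0093 without young replicate 4) to 0.23 and was at -0.075 at no more than 5% mitochondrial UMIs. Meg3 in the epithelium was at 0.16 at no more than 5% mitochondrial UMIs. Of the values of single genes under alternatives, 116 of those for the 11 results that passed kept their call and 37 lost it, all with the same sign. Of the 11 results, 6 are members in progenitors and are descriptions only, since that contrast chose the members. Among values that did not pass, Dlk1 in progenitors ran from -3.66 to -1.51 with 1 library left out, and in mural cells Peg3 from 0.28 (without old replicate 1) to 1.37, with 2.84 for Peg3, -2.28 for Ndn and -2.19 for Meg3 at no more than 5% mitochondrial UMIs. B cells could not be fitted at no more than 5% mitochondrial UMIs. Zim1 in progenitors, likewise a description, passed under all 14 alternatives. Low counts limit Usp29, Mirg and Peg10 in all lineages and every member in lymphocytes.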
